A study of Mus musculus with 6 samples.

Results

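Rab GTPases are small membrane-bound switches, and 58 of the 55291 genes listed for these bone marrow derived macrophages (BMDMs) carried a Rab name followed by a number. These 58 genes were taken by name, all but Rab4a of the genes so named, and were sorted by where their proteins act into early endosome and recycling (7 genes), late endosome and lysosome (5), secretory (7) and other Rabs (39). Rab4a was kept out of the set, because an earlier analysis of these data had already shown it to differ between the genotypes, so a measured value bears on which genes the set holds. Its values are given only for scale and beside its paralog Rab4b. Of the 58 genes, 38 had enough counts to be tested among 9815 genes. A further 15 were counted at levels too low to test, and 5 (Rab3c, Rab9b, Rab27b, Rab30 and Rab39b) had 0 counts in every library, which in these libraries allows a level of up to 0.766 to 1.05 CPM (counts scaled to a common library total). Their transcripts were compared between macrophages with and without PYK2, the non-receptor tyrosine kinase encoded by Ptk2b.

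The samples were 6 bulk RNA libraries of BMDMs from C57BL/6 mice, 3 of wild-type (WT) and 3 of PYK2 knockout (PYK2 KO) genotype. PYK2 KO mice lacked PYK2 in the whole animal, so the marrow precursors had also developed without it. Marrow cells of both genotypes were grown for 7 days in medium with L929-conditioned supernatant as the source of M-CSF, the growth factor that turns marrow precursors into macrophages. Mouse age and sex were not given in the sources used here, and the cultures of each genotype came from 3 mice as biological replicates.

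Library totals ran from 2857097 to 3917207 counts. Ptk2b was 195 ± 5.63 CPM (SD, n = 3) in WT and 21.8 ± 1.14 CPM in PYK2 KO, that is 11.2% of the WT level, and separated the genotypes as labelled. All 7 macrophage markers tested (Adgre1, Cd68, Csf1r, Lyz2, Itgam, Mertk and Fcgr1) were present, with a summed level of 28734 to 29573 CPM in WT against 29925 to 30987 CPM in PYK2 KO, and none of them passed the test. The summed ranges did not overlap, and most of the sum was Lyz2, at 24068 ± 471 CPM in WT against 25389 ± 556 CPM in PYK2 KO. Lyz2 and Itgam were higher in every PYK2 KO library, where 10.2% of all tested genes did not overlap, and the other macrophage markers overlapped. Cd3e, Flt3 and Hba-a1, defining markers of T, dendritic and erythroid cells, were at 0 counts in every library, and the 5 neutrophil markers summed to 61.9 to 110 CPM in the WT libraries and 77.6 to 154 CPM in the PYK2 KO libraries, overlapping ranges. Of these, S100a9 was 44.9 ± 22.5 CPM in WT against 82.3 ± 27.8 CPM in PYK2 KO and Mpo was 2.10 ± 1.09 CPM in WT against 4.88 ± 1.37 CPM in PYK2 KO (edgeR adjusted p = 0.537 and 0.591), with every PYK2 KO library above WT for Mpo alone, and their part in the Rab values was not tested. Some of the variation did not follow genotype. A component holding 31.1% of the variance left after genotype set WT 1 and PYK2 KO 4 apart from WT 6 and PYK2 KO 2, and with this component as a covariate 0 of 38 tested Rabs had an unadjusted p under 0.05, beside 7.55% of all tested genes. In bulk RNA, fewer cells of a type and less RNA per cell cannot be told apart.

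A Rab protein cycles between a GTP-bound form, which sits on a membrane and recruits effectors, and a GDP-bound form, which is drawn off the membrane by a GDP dissociation inhibitor. Guanine nucleotide exchange factors (GEFs) switch it on, GTPase-activating proteins (GAPs) switch it off, and prenyl groups added at its end by Rab geranylgeranyl transferase anchor it. In macrophages, successive Rabs label the early, late and recycling endosomes, phagosomes and lysosomes through which engulfed cargo passes, and other Rabs carry receptors and cytokines to the cell surface.

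The phosphate-binding loop, which holds the phosphates of GTP and GDP, is the signature that the family shares. It was looked for in the protein reading of each coding sequence (GRCm38, GENCODE M21) as the Walker A motif of 8 residues, on the coding strand only. The loop was present in 56 of the 58 genes, against 935 of 21540 coding genes (4.34%), and was not matched in Rab40b and Rab40c. Coding lengths had a median of 645 bases and ran from 582 to 2175 bases. The loops are printed for the paralogs of the Rab4, Rab5, Rab11, Rab7 and Rab1 families, because they show how far close relatives differ in letters where their function is shared. Reads were counted at transcript 3′ ends, so the loops do not bear on whether reads of paralogs were kept apart. The capitals mark the codons of the lysine and the serine or threonine that close the loop. Each loop lies in coding exon sequence, in exon 2 of its transcript, except those of Rab7 and Rab7b, which run from exon 2 into exon 3.
Rab4a (chr8:123823840-123823863, plus strand): ggaaatgcgggaactggcAAATCT
Rab4b (chr7:27176189-27176212, minus strand): ggcagtgctggaactggcAAATCA
Rab5a (chr17:53483991-53484014, plus strand): ggagagtctgctgttggcAAATCA
Rab5b (chr10:128686809-128686832, minus strand): ggagagtctgcagtggggAAGTCT
Rab5c (chr11:100719976-100719999, minus strand): ggcgagtctgccgtgggcAAGTCC
Rab11a (chr9:64728395-64728418, minus strand): ggagattctggtgttggaAAGAGT
Rab11b (chr17:33749943-33749966, minus strand): ggggactcaggtgtaggtAAGAGC
Rab7 (chr6:88012421-88013648, minus strand): ggggactctggtgttggaAAGACC
Rab7b (chr1:131697056-131697841, plus strand): ggtgcacttggcgtgggaAAGACC
Rab1a (chr11:20215658-20215681, plus strand): ggcgattctggggttggaAAGTCC
Rab1b (chr19:5105199-5105222, minus strand): ggtgactccggcgtgggcAAGTCG
Of the 24 bases of the loop, 4 differed between Rab4a and Rab4b, 4 to 5 between members of the Rab5 trio, 6 between Rab11a and Rab11b, 7 between Rab7 and Rab7b and 7 between Rab1a and Rab1b. Over whole transcripts, the longest identical stretch was 23 bases for Rab4a with Rab4b, 38 for Rab1a with Rab1b, 35 for Rab5a with Rab5b, 14 for Rab11a with Rab11b and 18 for Rab7 with Rab7b. A longer stretch of 70 bases was common to Rab11b and Rab4b.

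Summed over the family, Rab transcripts of WT and PYK2 KO BMDMs differed by less than the spread between libraries. The 58 genes summed to 4249 ± 142 CPM in WT against 4254 ± 61.5 CPM in PYK2 KO (SD, n = 3 each). None of the 38 tested Rabs passed edgeR's quasi-likelihood test at an adjusted p of 0.05, where 0.255% of all tested genes did (0.112% with a higher and 0.143% with a lower level in PYK2 KO), and the smallest adjusted p among the Rabs was 0.896. At an unadjusted p of 0.05, 0 of 38 Rabs passed in edgeR against 6.03% of all tested genes, and 0 of 38 also passed in DESeq2 (2.76% of all tested genes) and in limma-voom (6% of all tested genes). Adjusted calls were likewise 0 of 38 in DESeq2 and limma-voom, beside 0.224% and 0.204% of all tested genes. Since Rab4a, the Rab already known to differ, was left out, the count of 0 is a description of the remaining genes and is not to be read against the background. With Rab4a, 1 of 39 Rabs passed. The sizes of the differences are therefore given with their intervals.

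The log2 fold changes (PYK2 KO against WT) of the 38 Rabs ran from -0.28 to 0.40, with 19 above and 19 below 0, where 50.5% of all tested genes lay above 0. Without composition scaling the same 38 genes split into 24 above and 14 below 0. Their median was 0.0043, beside 0.0019 for all tested genes, and the median size without regard to sign was 0.083, beside 0.10 for all tested genes. The 95% interval of the fold change stayed within 0.25 of 0 on the log2 scale, a 1.19-fold difference, for 8 of 38 Rabs (13.1% of all tested genes), within 0.5, a 1.41-fold difference, for 26 (59.8%) and within 1 for 36 (92.2%). The lowest bound of any interval was -0.77 (Rab6b) and the highest was 1.08 (Rab5a and Rab18), genes with few counts. Leaving out 1 library moved the log2 fold change by over 1.5 times or across 0 for 35 of the 38 Rabs, all but Rab5a, Rab5c and Rab33b. Beyond the 13 Rabs that a rule on level, p and overlap selected, tested members given with every library were picked for the size of their fold change, and untested members for their counts, after these were seen.

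**Figure D1:**
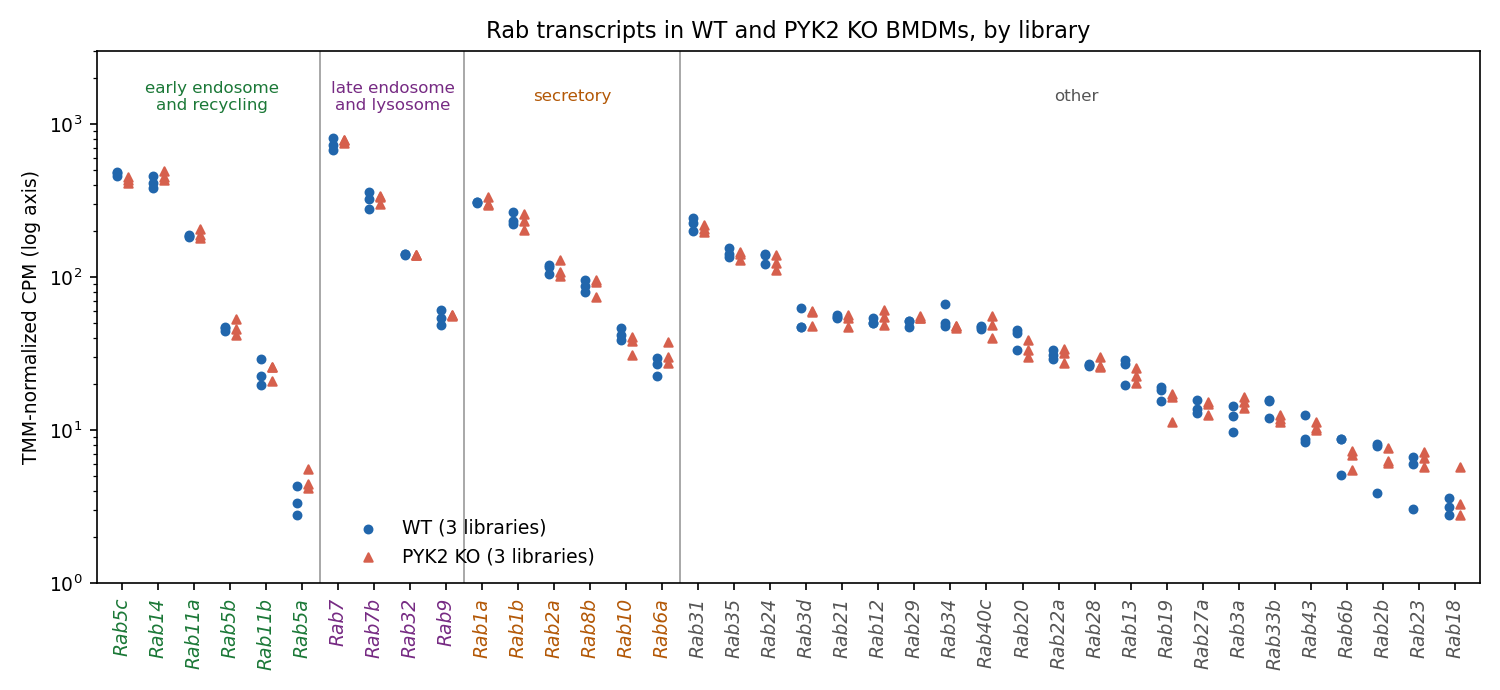
TMM-normalized CPM (log axis) of the 38 tested Rabs in each of 3 WT libraries (circles) and 3 PYK2 KO libraries (triangles), grouped by role and ordered by mean level. Circles and triangles overlap for all genes but Rab5c, where the triangles sit lower, and Rab29, where they sit higher.

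**Figure D2:**
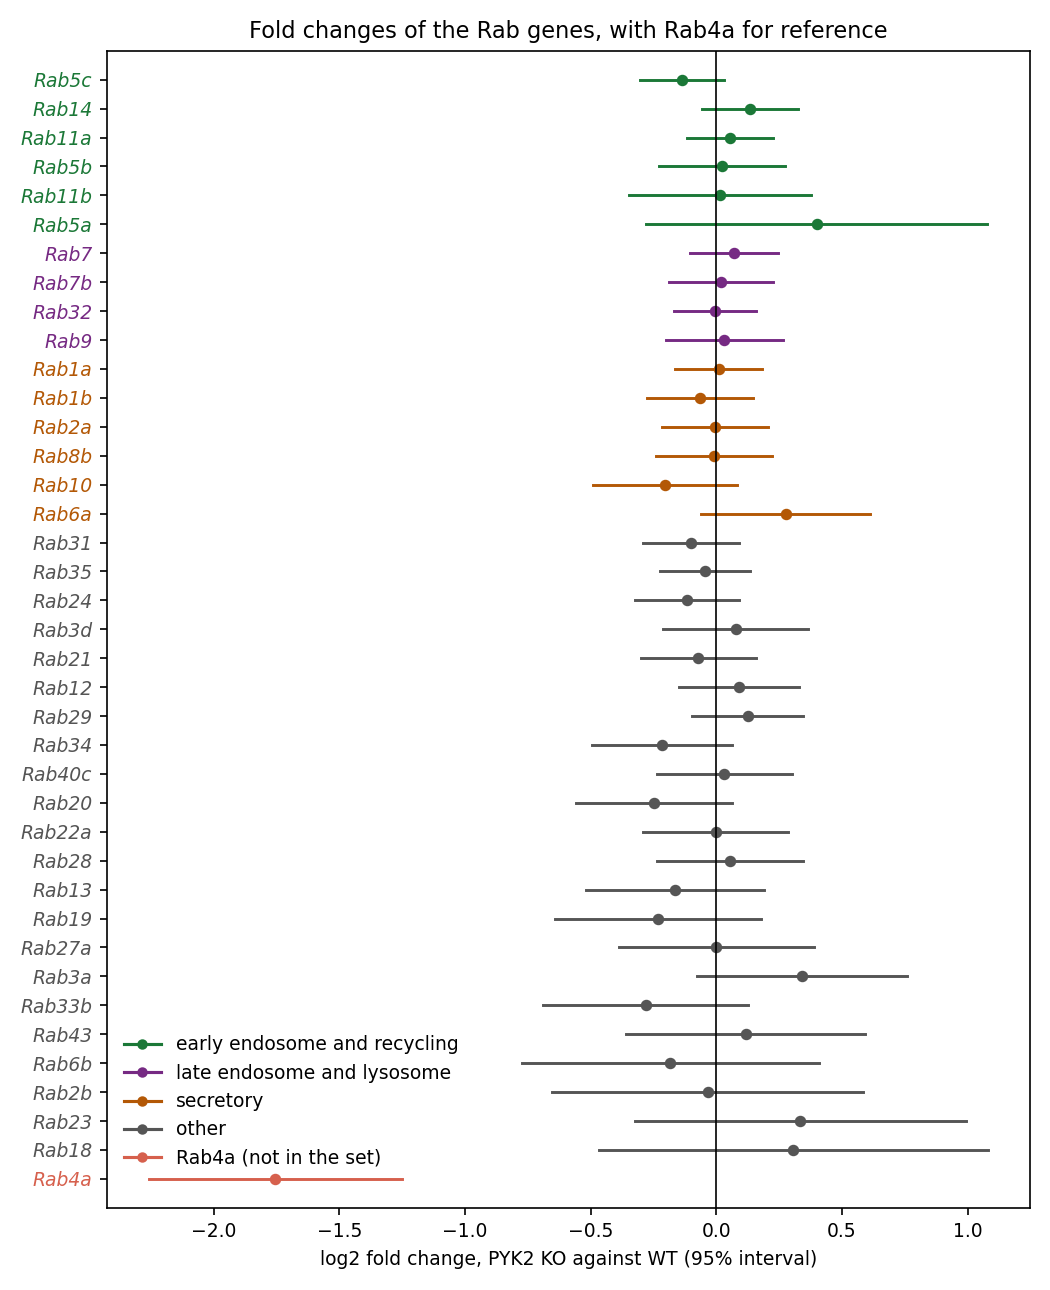
Log2 fold change of each tested Rab, PYK2 KO against WT (edgeR), with its 95% interval, by role group, with Rab4a shown apart for scale. Every Rab interval covers 0, while the interval of Rab4a runs from -2.26 to -1.25.

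Genotypes failed to overlap in 2 of the 38 tested Rabs, where 10.2% of all tested genes separated in the same way. Rab5c (chr11:100715009-100738215, minus strand), which drives fusion of early endosomes and young phagosomes, was 477, 482 and 459 CPM in the WT libraries and 426, 452 and 412 CPM in the PYK2 KO libraries. Its lowest WT library thus lay just above its highest PYK2 KO library. The log2 fold change was -0.14 (SE 0.08, 95% interval -0.30 to 0.03, edgeR adjusted p = 0.896). Rab29 (chr1:131867224-131872887, plus strand), which recruits the kinase LRRK2 to Golgi and lysosomal membranes, was 47.2, 51.2 and 51.5 CPM in WT and 53.9, 55.4 and 53.9 CPM in PYK2 KO. All PYK2 KO libraries were above the WT libraries by a small margin, with a log2 fold change of 0.12 (SE 0.10, 95% interval -0.10 to 0.35, edgeR adjusted p = 0.935), or 0.08 without WT 1.

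Among the early endosome and recycling Rabs, 6 of 7 genes were tested, 5 with fold changes above 0 and 1 below (3 above and 3 below without PYK2 KO 4 or without WT 6), and 0 passed the test. The 7 genes summed to 1148 ± 46.3 CPM in WT against 1156 ± 38.0 CPM in PYK2 KO. Rab14, which links early endosomes with the trans-Golgi network, was 456, 380 and 413 CPM in WT and 431, 448 and 491 CPM in PYK2 KO. WT 1 reached into the PYK2 KO range while the other two WT libraries lay below it, and the log2 fold change was 0.13 (95% interval -0.06 to 0.32), or 0.07 without WT 5, 0.08 without PYK2 KO 4 and 0.21 without WT 1. Rab11a, the Rab of the recycling endosome, was 188, 182 and 185 CPM in WT and 180, 189 and 207 CPM in PYK2 KO. Its WT values lay inside the PYK2 KO range, with a log2 fold change of 0.05 (95% interval -0.12 to 0.23).

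The Rab5 paralogs, of which Rab5c made up most of the counts, showed no common direction. Rab5b was 46.2 ± 1.47 CPM in WT against 46.8 ± 5.49 CPM in PYK2 KO (log2 fold change 0.02). Rab5a rested on 8 to 17 counts per library, at 4.34, 3.36 and 2.80 CPM in WT and 4.17, 5.54 and 4.47 CPM in PYK2 KO. Its log2 fold change of 0.40 was the highest of the family, but the genotypes overlapped and the interval ran from -0.28 to 1.08. Rab11b, the paralog of Rab11a, was 23.7 ± 4.89 CPM in WT against 24.2 ± 2.87 CPM in PYK2 KO (log2 fold change 0.01, 95% interval -0.35 to 0.38).

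Rab4b, which returns receptors rapidly from early endosomes to the surface, had 2, 3 and 4 counts in WT and 3, 4 and 1 counts in PYK2 KO, too few to be tested. No direction can be read from 9 against 8 counts in all. Its paralog Rab4a had 58, 64 and 53 counts in WT and 19, 10 and 18 counts in PYK2 KO, or 17.1 ± 2.01 and 4.97 ± 1.36 CPM. No PYK2 KO library came near the WT range, and Rab4a fell by 1.75 on the log2 scale (SE 0.24, 95% interval -2.26 to -1.25, edgeR adjusted p = 0.00164), to 29.1% of the WT level. Rab4a was known for this difference in advance, and it is given here only for scale. No interval of the 38 tested Rabs reached down to -1.25, the bound of Rab4a nearest to 0. The last 500 bases of Rab4b are also annotated to Gm21983, a gene on the same strand that shared 445 stretches of 50 bases with it and had 0 counts in every library, so the level of Rab4b is uncertain. A longer annotated gene on the same strand, Gm20388, spans the 3′ end of Rab4a, and its transcripts shared 0 such stretches with Rab4a.

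In the main fit, the late endosome and lysosome Rabs had the smallest median size of fold change of the 4 role groups, 0.025 on the log2 scale. Their median log2 fold change was 0.025 in that fit and 0.082 without WT 1, so this ranking can depend on 1 library. Of 5 genes, 4 were tested, 3 had fold changes above 0 and 1 below (1 above and 3 below without WT 6), 0 passed, and 3 of the 4 intervals stayed within 0.25 of 0. Rab7, which brings late endosomes and phagosomes to fusion with lysosomes, was 722, 810 and 679 CPM in WT and 783, 785 and 755 CPM in PYK2 KO. The PYK2 KO values lay inside the WT range, with a log2 fold change of 0.07 (95% interval -0.10 to 0.25), or 0.02 without WT 6 and 0.14 without WT 5. Rab7b, which carries cargo from late endosomes to the trans-Golgi network, was 358, 323 and 278 CPM in WT and 338, 301 and 333 CPM in PYK2 KO (log2 fold change 0.02, 95% interval -0.19 to 0.23). Here the WT range also enclosed the PYK2 KO values.

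Rab32, which serves lysosome-related organelles and defence against intracellular bacteria, was 140, 139 and 141 CPM in WT and 139, 139 and 140 CPM in PYK2 KO. All 6 libraries thus lay between 139 and 141 CPM, and the log2 fold change was -0.01 with an interval of -0.17 to 0.16. Rab9, which returns mannose 6-phosphate receptors from late endosomes to the Golgi, was 54.5 ± 6.04 CPM in WT against 56.0 ± 0.43 CPM in PYK2 KO (log2 fold change 0.03, 95% interval -0.20 to 0.27). Rab9b was at 0 counts in all libraries. The group summed to 1251 ± 93.3 CPM in WT against 1294 ± 20.0 CPM in PYK2 KO.

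Among the secretory Rabs, 6 of 7 were tested, 2 with fold changes above 0 and 4 below (4 above and 2 below without composition scaling), and 0 passed. Rab1a, which directs vesicles from the endoplasmic reticulum to the Golgi, was 306, 309 and 304 CPM in WT and 294, 300 and 331 CPM in PYK2 KO. The PYK2 KO values lay on both sides of the narrow WT range, with a log2 fold change of 0.01 (95% interval -0.16 to 0.18). Its paralog Rab1b was 233, 265 and 223 CPM in WT and 256, 233 and 201 CPM in PYK2 KO (log2 fold change -0.06, 95% interval -0.27 to 0.15). Rab2a, which acts between the endoplasmic reticulum and Golgi, was 116, 119 and 104 CPM in WT and 102, 108 and 128 CPM in PYK2 KO (log2 fold change -0.0046, 95% interval -0.22 to 0.21). For Rab1b, 1 PYK2 KO library lay below the WT range, and for Rab2a 1 lay above it and 1 below.

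Rab8b, a Rab of transport from the Golgi to the plasma membrane, was 87.8 ± 7.80 CPM in WT against 87.6 ± 11.7 CPM in PYK2 KO. Rab10, which acts in delivery of vesicles to the plasma membrane, was 42.4 ± 4.04 CPM in WT against 36.6 ± 4.89 CPM in PYK2 KO (log2 fold change -0.20, 95% interval -0.49 to 0.08, or -0.10 without PYK2 KO 2 and -0.135 without WT 6). An antisense gene, Rab10os, overlaps its 3′ end and had 120 to 195 counts per library, so reads of both genes cannot be told apart unless the counting used strand, which was not stated. Rab6a, which acts in retrograde traffic through the Golgi, was 22.5, 29.7 and 27.0 CPM in WT and 30.2, 27.4 and 37.6 CPM in PYK2 KO. PYK2 KO 2 and PYK2 KO 4 were above all WT libraries and PYK2 KO 3 was within the WT range. The log2 fold change of 0.28 (95% interval -0.06 to 0.61) had the smallest unadjusted p of the family, and its edgeR adjusted p was 0.896. Without PYK2 KO 4 the log2 fold change was 0.13, and without WT 1 it was 0.16. Rab8a was not tested, at 15, 5 and 8 counts in WT and 3, 5 and 16 counts in PYK2 KO, a wide spread within both genotypes. Transcript ends of Rab8a share 50-base stretches with 161 other genes, which makes its counts uncertain. The group summed to 819 ± 33.5 CPM in WT against 809 ± 26.3 CPM in PYK2 KO.

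The other Rabs, 22 of 39 tested, had 9 fold changes above 0 and 13 below, and 0 passed. The split was 11 above and 11 below in limma-voom, without composition scaling and without WT 6. They summed to 1042, 1026 and 1023 CPM in WT and 978, 1000 and 1007 CPM in PYK2 KO (1030 ± 10.5 against 995 ± 15.2 CPM). The sums of the genotypes did not overlap, but without Rab31, the most abundant of them, they did (792 to 820 CPM in WT, 751 to 799 CPM in PYK2 KO). Their 3 most abundant members were Rab31, Rab35 and Rab24. Rab31, which sorts cargo between the trans-Golgi network and endosomes, was 243, 199 and 224 CPM in WT and 219, 195 and 207 CPM in PYK2 KO (log2 fold change -0.10, 95% interval -0.29 to 0.09). Rab35, which recycles receptors at the plasma membrane, was 135, 142 and 154 CPM in WT and 145, 130 and 142 CPM in PYK2 KO (log2 fold change -0.05, 95% interval -0.23 to 0.14). Rab24, linked to autophagy, was 139, 141 and 122 CPM in WT and 110, 139 and 123 CPM in PYK2 KO (log2 fold change -0.12, 95% interval -0.32 to 0.09). In all of these the genotypes overlapped. Leaving out 1 library, the log2 fold change of Rab31 ran from -0.18 (without WT 5) to -0.03 (without WT 1) and that of Rab24 from -0.20 (without PYK2 KO 3) to -0.04 (without PYK2 KO 2).

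When the other Rabs were divided further by textbook role, the 7 tested genes of endocytosis, phagosomes and the plasma membrane (Rab13, Rab20, Rab21, Rab22a, Rab31, Rab34 and Rab35) all had fold changes below 0, from -0.25 to -0.0026, with a median of -0.10, although Rab22a lay above 0 when totals were used without composition scaling. None of the 7 passed the test, and every interval covered 0. Their summed level, over all 11 listed genes of this kind, was 582, 564 and 577 CPM in WT and 543, 521 and 541 CPM in PYK2 KO. The PYK2 KO libraries were all lower, at a mean of 535 ± 12.5 CPM against 574 ± 8.96 CPM, and without Rab31, the most abundant gene, the sums were 334 to 364 CPM in WT against 321 to 332 CPM in PYK2 KO. Leaving out WT 6 left 5 of the 7 below 0. This division was made with the data in hand and carries no test. It covers only Rabs outside the early, late and secretory groups. Rab5c (log2 fold change -0.14) and Rab7 (0.07), described above as acting on phagosomes, fell in the endosome groups. In those groups, 5 of 6 (early) and 3 of 4 (late) tested genes lay above 0. Rab31 was placed here although described above as sorting between the trans-Golgi network and endosomes. The lowest fold change among the 7 was that of Rab20, a Rab of phagosome maturation, at 33.5, 44.8 and 42.8 CPM in WT and 29.8, 38.8 and 33.1 CPM in PYK2 KO. WT 1 lay inside the PYK2 KO range, and the log2 fold change was -0.25 (95% interval -0.56 to 0.06, edgeR adjusted p = 0.898), or -0.16 without WT 5 and -0.37 without WT 1. Rab34, which acts on macropinosomes and maturing phagosomes, had a log2 fold change of -0.22 (95% interval -0.49 to 0.06), with WT 5 at 66.9 CPM and the other 5 libraries between 46.5 and 49.8 CPM. The difference in Rab34 rested on WT 5, without which its log2 fold change was -0.04.

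The Rabs of regulated secretion had 3 of 9 genes tested. Rab3a, which primes secretory vesicles, was 9.70, 12.3 and 14.4 CPM in WT and 16.4, 15.2 and 14.01 CPM in PYK2 KO, with an overlap of only PYK2 KO 4 with WT 6 (log2 fold change 0.34, 95% interval -0.08 to 0.76, edgeR adjusted p = 0.896). Without WT 1 its log2 fold change was 0.19. An antisense gene at its 3′ end, Mpv17l2, had 172 to 233 counts per library, several times those of Rab3a, so its counts are uncertain without strand. Rab27a, which docks lysosome-related secretory organelles, was 14.1 ± 1.39 CPM in WT against 14.1 ± 1.47 CPM in PYK2 KO, with transcript ends that share 50-base stretches with 145 other genes, so its counts are uncertain. Rab3d, of secretory granules, was 52.3 ± 9.12 CPM in WT against 55.5 ± 6.91 CPM in PYK2 KO (log2 fold change 0.08).

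The 12 tested Rabs of the Golgi, autophagy, cilia and less studied roles had 7 fold changes above 0 and 5 below, and all 19 listed genes of this kind summed to 376 ± 7.57 CPM in WT against 374 ± 17.9 CPM in PYK2 KO. Rab33b, which binds the autophagy protein Atg16l1, had the lowest fold change of all 38 Rabs, -0.28 (95% interval -0.69 to 0.13), at 14.5 ± 2.10 CPM in WT against 11.9 ± 0.60 CPM in PYK2 KO. Its transcript ends share 50-base stretches with 83 other genes, so its counts are uncertain too. Rab23, a regulator of hedgehog signalling in cilia, was 5.25 ± 1.93 and 6.50 ± 0.69 CPM (log2 fold change 0.33, 95% interval -0.32 to 0.99), with WT 1 at 3.06 CPM and the other libraries between 5.77 and 7.15 CPM. Its log2 fold change was 0.03 without WT 1 and 0.58 without WT 5. Rab18, of lipid droplets, was 3.18 ± 0.39 and 3.94 ± 1.61 CPM (log2 fold change 0.31, 95% interval -0.47 to 1.08), with PYK2 KO 2 at 5.77 CPM and the other libraries between 2.77 and 3.58 CPM. Without PYK2 KO 2 its log2 fold change was -0.07. The remaining genes of this kind, Rab2b, Rab6b, Rab12, Rab19, Rab28, Rab40c and Rab43, had log2 fold changes between -0.23 and 0.12. Among them, Rab19 was -0.06 without PYK2 KO 2, Rab6b -0.05 without WT 5 and -0.42 without WT 1, Rab12 0.0024 without PYK2 KO 4 and Rab43 0.31 without WT 6. The counts of Rab43 are uncertain, because its 3′ end shares 443 stretches of 50 bases with Gm45140 on the same strand, which had 0 or 1 counts per library. Transcript ends of Rab7, Rab9, Rab11a and Rab18 also share 50-base stretches with 1 other gene each, which limits their counts too. For Rab7 this was Rab7-ps1 (0 to 5 counts per library), and for Rab9 and Rab11a the copy had 0 counts. In all, 7 tested Rabs share such stretches with another gene. Of the 20 untested Rabs, 14 had at most 3 counts in every library, the 5 at 0 included. Rab42, the highest apart from Rab8a, had 4, 5 and 5 counts in WT and 8, 4 and 12 counts in PYK2 KO. Reads per gene were counted at transcript 3′ ends and were not divided by length, so levels are compared between genotypes and not between genes.

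**Figure D3:**
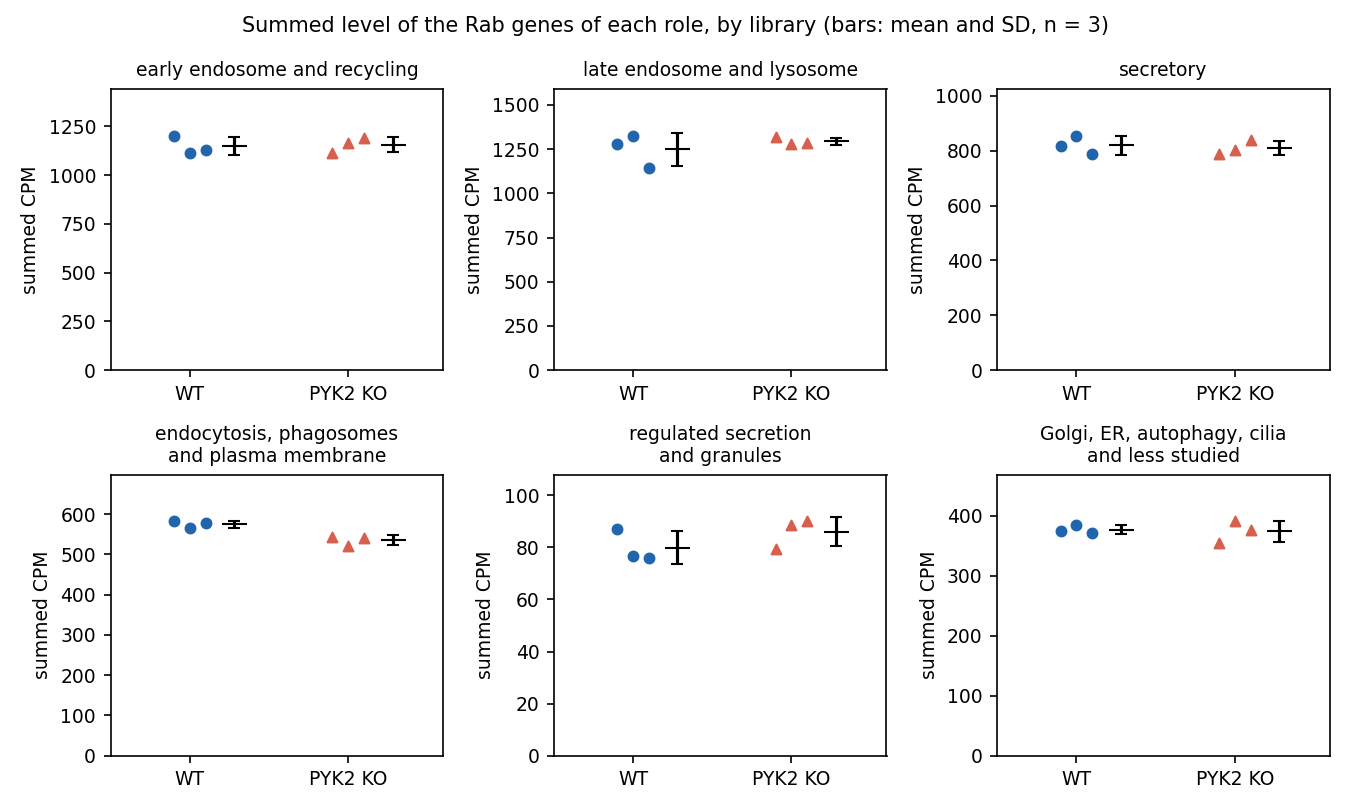
Summed TMM-normalized CPM (linear axes from 0) of the Rabs of each role in 3 WT (circles) and 3 PYK2 KO (triangles) libraries, with bars for the mean and SD and with the other Rabs divided into 3 panels in the lower row. The genotypes overlap in all panels but that of endocytosis, phagosomes and plasma membrane, where PYK2 KO lies at 535 ± 12.5 CPM against 574 ± 8.96 CPM in WT.

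The genes that switch, deliver and read Rabs were taken from a list of 140 regulators and effectors, of which 138 were in the table and 120 were tested. Of these, 9 act in prenylation, escort and retrieval, 41 are GEFs, 30 are GAPs and 40 are effectors, and 0 passed the test in edgeR, DESeq2 or limma-voom. In edgeR, 3 of 120 had an unadjusted p under 0.05 (6.03% of all tested genes) and 7 had genotypes that did not overlap (10.2% of all tested genes). Leaving out 1 library, those with an edgeR unadjusted p under 0.05 ran from 1 of 121 (without WT 5, beside 4.71% of all tested genes) to 7 of 121 (without WT 1, beside 6.56%). The 120 fold changes had a median of 0.0018, with 61 above and 59 below 0. Leaving out 1 library, the median of the regulators that could be fitted ran from -0.0058 (without PYK2 KO 2) to 0.021 (without WT 1). Rabggtb, the beta subunit of Rab geranylgeranyl transferase, was 28.6, 24.4 and 28.04 CPM in WT and 31.4, 41.9 and 48.0 CPM in PYK2 KO. Every PYK2 KO library was above the WT libraries, PYK2 KO 4 the furthest. The log2 fold change was 0.59 (SE 0.16, 95% interval 0.25 to 0.92), and the edgeR adjusted p was 0.359. Without a filter on low counts the adjusted p of Rabggtb was 0.012, the only setting in which it passed.

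The remaining regulators named by the same rule had smaller fold changes. Evi5, a GAP with a TBC domain, was 24.5, 15.1 and 17.2 CPM in WT and 22.8, 23.2 and 30.4 CPM in PYK2 KO, with WT 1 among the PYK2 KO values (log2 fold change 0.42, 95% interval 0.01 to 0.82, edgeR adjusted p = 0.814). Its log2 fold change was 0.265 without PYK2 KO 4, 0.271 without WT 5 and 0.669 without WT 1. Rilpl2, a relative of the Rab7 effector Rilp, was 416, 389 and 367 CPM in WT and 355, 344 and 337 CPM in PYK2 KO, with all PYK2 KO values lower (log2 fold change -0.18, 95% interval -0.35 to -0.0039, edgeR adjusted p = 0.819). The most abundant gene of each of the other classes, Rabac1, which binds prenylated Rabs, Rab3il1, a Rab GEF, and Tbc1d20, a GAP of Rab1, had log2 fold changes of -0.06, -0.09 and -0.03, with overlapping genotypes. Leaving out 1 library, that of Rabac1 ran from -0.13 (without WT 6) to -0.01 (without WT 5) and that of Rab3il1 from -0.14 (without WT 6) to -0.00095 (without WT 1). None of the 3 genes with an unadjusted p under 0.05 passed after adjustment over all 9815 genes.

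**Figure D4:**
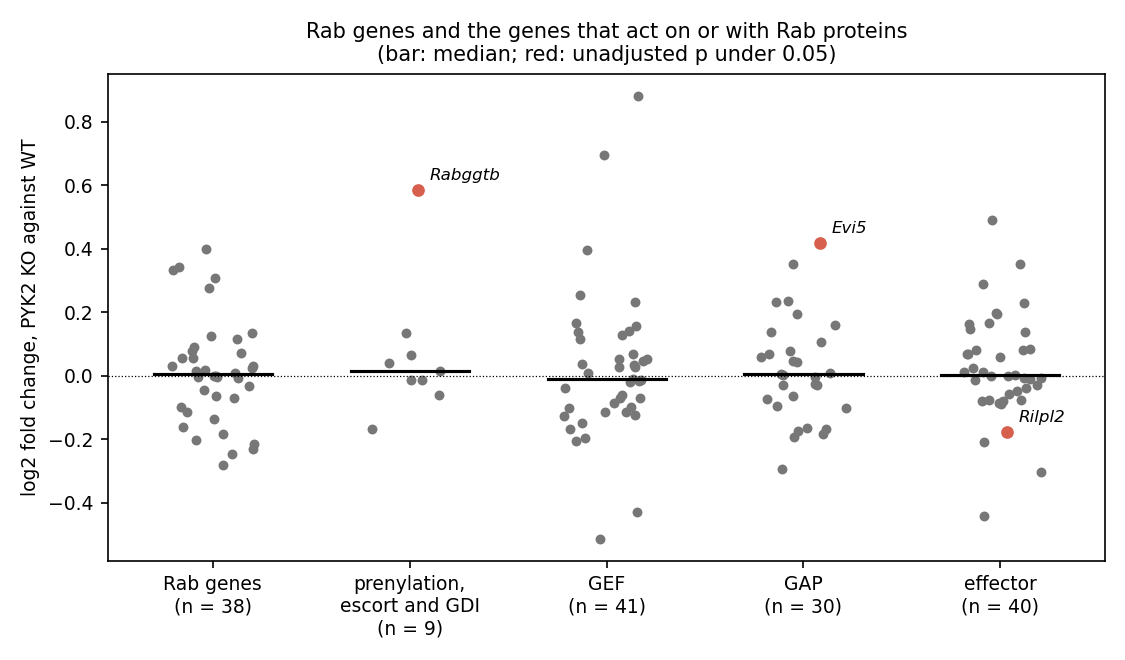
Log2 fold change, PYK2 KO against WT (edgeR), of the 38 tested Rabs and of the 120 tested Rab regulators and effectors by class, with a bar at each median. Points lie on both sides of 0 in every class, and the 3 genes with an unadjusted p under 0.05 (Rabggtb at 0.59, Evi5 at 0.42 and Rilpl2 at -0.18) are labelled in red.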

How the data were processed

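Counts per gene were deposited by the authors as 1 table of whole-number read counts for 6 bulk MARS-seq libraries, a 3′-end method, with reads trimmed by cutadapt and aligned by STAR to mm10 per the labels (versions, annotation, use of strand and collapsing of molecular identifiers not given in the sources used here). Rab genes were taken by name and sorted by role. The genes, the role groups and the list of regulators were chosen with earlier results of these data known. Counts were filtered with filterByExpr, scaled by TMM and tested with edgeR 4.0.16 (R 4.3.3) on genotype alone, with the quasi-likelihood F test and Benjamini-Hochberg adjustment over 9815 genes, two-sided. CPM are counts divided by the TMM-scaled library total and rescaled to a common total. The SE is the fold change over the square root of F, and intervals are at 95%. The fits were tested on simulated data. DESeq2 1.42.0, limma-voom (limma 3.58.1), other filters, no composition scaling, a residual component as covariate and leaving out each library were the alternatives. Given with values in every library were Rabs with an unadjusted p under 0.05 or genotypes that did not overlap, and the 3 most abundant of each role. Of the regulators these were the genes with an unadjusted p under 0.05 and the most abundant of each class. Gene positions and coding sequences are from GENCODE M21 (GRCm38). Intervals for 0 counts (3 counts) cover counting error only, and reads without molecular identifiers are not independent molecules.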

Additional observations from a re-analysis of the deposited data

How the results depend on the processing

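None of the Rabs of the set, which leaves out Rab4a, passed at an adjusted p of 0.05 in any of the 13 other settings. Rab4a passed in all 13 (edgeR, DESeq2 or limma-voom adjusted p from 3.55e-09 to 0.0203). It was known in advance to differ in these same libraries, so this is given only for scale. No paired analysis was possible because the labels gave no pairs, with WT samples numbered 1, 5 and 6 and PYK2 KO samples 2, 3 and 4. Leaving out 1 library at a time gave 14 (without PYK2 KO 4) to 34 called genes against 25, with 15 without PYK2 KO 2 and 15 without WT 5, 0 to 2 Rabs with an unadjusted p under 0.05 (beside 4.44% to 6.95% of all tested genes), and medians of -0.0217 (without WT 6) to 0.024 for all Rabs that could be fitted (38 or 39; -0.0146 to 0.0203 over the same 38), 0.0278 to 0.135 (without WT 1) for early endosome and recycling Rabs, -0.0188 (without WT 6) to 0.0821 for late endosome and lysosome Rabs, -0.0613 to 0.0624 for secretory Rabs and -0.0584 (without PYK2 KO 4) to -0.0124 for other Rabs. The Rabs concerned were Rab20 without PYK2 KO 3, Rab14 and Rab20 without WT 1, and Rab34 and Rab3a without WT 6. The residual component as covariate called 62 genes, and no filter called 159 genes and 1 regulator, Rabggtb (log2 fold change 0.581). Of 596 values compared for 46 genes, 550 kept direction and side of the threshold, 45 changed sign and 1 (Rabggtb without a filter) newly passed. Without composition scaling, Rab22a was 0.00568, Rab27a 0.00795, Rab2a 0.00472, Rab32 0.00205 and Rab8b 0.000718. In limma-voom, Rab27a was 0.000225 and Rab2b 0.0157. Rab27a was 0.000137 with at least 10 counts in every library and 0.000436 with the covariate. Leaving out 1 library, the log2 fold change ran from -0.00564 to 0.0976 for Rab11a, -0.112 to 0.204 for Rab11b, -0.0684 to 0.491 for Rab18, -0.0452 to 0.0412 for Rab1a, -0.149 to 0.0234 for Rab1b, -0.0715 to 0.0799 for Rab22a and -0.0571 to 0.0793 for Rab27a. It ran from -0.0197 to 0.0929 for Rab28, -0.112 to 0.0624 for Rab2a, -0.271 to 0.119 for Rab2b, -0.0869 to 0.0039 for Rab35, -0.00334 to 0.238 for Rab3d, -0.0845 to 0.151 for Rab40c and -0.0744 to 0.0937 for Rab5b. It ran from -0.0698 to 0.108 for Rab7b, -0.0775 to 0.0978 for Rab8b, -0.037 to 0.12 for Rab9 and -0.103 to 0.0146 for Tbc1d20. The cause was not tested. Counts of 20 of the 58 Rabs were too low to test.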
